A study of Mus musculus with 6 samples.

Results

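The genes described here encode the core of the transcription machinery: subunits of RNA polymerases I, II and III, the Mediator complex, the general initiation factors, and factors that release paused polymerase II and carry it through elongation. They were read in a CUT&Tag experiment with an antibody against UTX, the H3K27 demethylase encoded by Kdm6a, in progenitor CD8 T cells of mice. The members were all sites of the authors' table whose assigned gene symbol begins with Polr1, Polr2 or Polr3, or with Med, Taf or Supt and a digit, or with Gtf2 or Gtf3, or is Ell, Ell2, Ell3, Cdk7, Cdk8, Cdk9, Cdk12, Cdk13, Cdk19, Ccnt1, Ccnt2, Ccnk, Ccnc, Hexim1 or Tbp. Of 6739 sites in the table, 69 met this rule, and they were assigned to 53 genes. The rule goes by symbol, so it also takes in proteins outside the general machinery, such as the RNA-binding protein Taf15 and the TFII-I family of sequence-specific factors.

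The UTX-deficient group comprised 3 samples of cells from UTXTCD.NY8.3 mice, in which UTX is deleted in T cells only, and the WT group comprised 3 samples from NY8.3 mice with intact UTX. Both groups carry the NY8.3 T cell receptor transgene on the NOD background, so nearly all of their CD8 T cells recognise a single islet antigen. In both groups, cells positive for CD8 and Ly108 and negative for CXCR6 were sorted from the pancreatic lymph nodes. The labels give no age and no treatment, do not name the Cre driver and do not say whether each sample is a separate mouse, so the spread between samples may be technical.

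RNA polymerase I makes the large ribosomal RNA precursor, polymerase II makes messenger RNA and polymerase III makes transfer RNA and other small RNAs. Polymerase II is brought to a promoter by TFIID, which contains the TATA-binding protein, and by TFIIA, TFIIB, TFIIE, TFIIF and TFIIH, while Mediator passes on signals from DNA-bound activators. Shortly after starting, polymerase II pauses, and the kinase P-TEFb (Cdk9 with cyclin T) releases it, a step held in check when Hexim1 and the 7SK RNA bind the kinase. Pause release is known as a regulated step when lymphocytes are activated.

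The table lists group values for sites that differed between the genotypes, each 401 bp wide, so levels can be set side by side between sites. Reads of each library were worked out as whole numbers from those values, and the libraries are ranked by depth within each group because they carry no replicate number. Depth relative to the mean of the 6 libraries was 1.93, 1.07 and 0.00577 in UTX-deficient libraries and 1.28, 0.916 and 0.792 in WT libraries. The shallowest UTX-deficient library was close to empty and held 0 reads at every one of the 69 sites, so its 0 says little about a site. The limma calls, the median limma differences and the limma differences of single sites are given with and without it. Unless stated otherwise, other values include it, among them the means, SDs, non-overlap counts and adjusted p of single sites. A site at Kdm6a itself held 8, 12 and 0 reads in UTX-deficient libraries and 65, 48 and 35 reads in WT libraries; which exons were deleted is not given in the labels, so it does not check the genotype. Among marker genes of the sorted cells, 6 of 7 for CD8 T cells had a site (Cd3g had none). Of the B cell markers 0 of 5 had a site, of the myeloid and dendritic markers 0 of 6, of the NK markers 0 of 3 and of the pancreatic and stromal markers 1 of 6 (Pecam1). Throughout, reads are given per library from the deepest to the shallowest, and normalized reads are reads divided by relative depth.

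At 21 of the genes, the promoter window of RefSeq (assembly GRCm38.p6, the assembly behind mm10; 250 bases before to 50 after the start) lay in the site over at least 200 of its 300 bases. The following 6 are shown because the results below turn on their sites: the largest subunit of polymerase II, the P-TEFb inhibitor, the elongation kinase Cdk13, a Mediator subunit, a SAGA subunit and the member with no read in UTX-deficient cells. Capitals mark matches, on either strand, to the motifs named in the next paragraph. The window of Polr2a is chr11:69758584-69758883, minus strand, that of Hexim1 chr11:103116075-103116374, plus strand, that of Cdk13 chr13:17805048-17805347, minus strand, that of Med21 chr6:146642329-146642628, plus strand, that of Taf6l chr19:8786267-8786566, minus strand, and that of Polr2b chr5:77310234-77310533, plus strand.
Polr2a: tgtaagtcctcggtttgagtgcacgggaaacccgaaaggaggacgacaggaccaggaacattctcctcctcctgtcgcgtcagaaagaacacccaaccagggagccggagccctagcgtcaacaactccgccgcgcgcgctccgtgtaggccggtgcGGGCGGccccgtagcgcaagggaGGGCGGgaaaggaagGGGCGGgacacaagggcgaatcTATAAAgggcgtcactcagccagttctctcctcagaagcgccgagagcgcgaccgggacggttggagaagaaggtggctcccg
Hexim1: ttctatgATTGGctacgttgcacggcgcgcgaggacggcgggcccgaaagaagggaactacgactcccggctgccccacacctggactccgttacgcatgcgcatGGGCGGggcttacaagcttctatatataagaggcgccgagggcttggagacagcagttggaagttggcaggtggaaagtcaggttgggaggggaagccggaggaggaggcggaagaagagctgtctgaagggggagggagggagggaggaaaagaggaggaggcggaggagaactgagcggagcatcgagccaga
Cdk13: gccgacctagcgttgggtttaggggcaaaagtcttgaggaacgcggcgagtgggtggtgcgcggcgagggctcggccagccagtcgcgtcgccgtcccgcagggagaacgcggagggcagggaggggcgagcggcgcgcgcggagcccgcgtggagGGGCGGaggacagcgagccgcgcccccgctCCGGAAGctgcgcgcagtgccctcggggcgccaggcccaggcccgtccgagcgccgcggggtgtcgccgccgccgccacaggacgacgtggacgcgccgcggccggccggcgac
Med21: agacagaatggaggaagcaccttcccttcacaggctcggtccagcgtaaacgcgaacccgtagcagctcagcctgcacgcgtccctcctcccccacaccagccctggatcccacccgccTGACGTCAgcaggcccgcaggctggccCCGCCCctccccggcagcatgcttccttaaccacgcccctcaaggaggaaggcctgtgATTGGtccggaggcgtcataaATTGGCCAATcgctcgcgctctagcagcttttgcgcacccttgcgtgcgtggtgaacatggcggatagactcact
Taf6l: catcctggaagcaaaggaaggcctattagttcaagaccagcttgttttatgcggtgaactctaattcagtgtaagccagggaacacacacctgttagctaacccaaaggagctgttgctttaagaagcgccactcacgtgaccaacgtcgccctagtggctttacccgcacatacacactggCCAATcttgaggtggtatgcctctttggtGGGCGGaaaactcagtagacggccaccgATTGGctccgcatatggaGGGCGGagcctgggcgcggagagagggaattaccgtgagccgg
Polr2b: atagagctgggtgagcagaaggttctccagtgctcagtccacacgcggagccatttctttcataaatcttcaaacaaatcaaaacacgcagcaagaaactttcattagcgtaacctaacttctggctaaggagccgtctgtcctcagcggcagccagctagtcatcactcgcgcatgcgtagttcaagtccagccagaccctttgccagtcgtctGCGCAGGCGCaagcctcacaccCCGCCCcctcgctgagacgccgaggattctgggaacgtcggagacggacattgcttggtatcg

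These windows were rich in G and C and mostly without a TATA box. Both strands were searched, and none of the motifs contains another. The GC box GGGCGG was in 95.2% of the 21 windows, in 82.3% of the 2738 RefSeq windows that lay in any site of the table and in 46.2% of all 21263 windows. The single member window without it was that of Med19. The CCAAT box was in 52.4% of the 21 windows, in 51.1% of windows in any site and in 38.2% of all windows. TATAAA was found at Polr2a alone, which is 4.76% of the 21 windows, against 3.94% of windows in any site and 12.6% of all windows. The cyclic AMP response element TGACGTCA was in 3 of the 21 windows (Med21, Ell2 and Gtf3c1; 14.3%), against 3.91% of windows in any site and 2.23% of all windows. The ETS core CCGGAAG was in 28.6% of the 21 windows, in 21.4% of windows in any site and in 11.6% of all. The NRF1 palindrome was in 14.3%, 14.7% and 6.38% of the same sets of windows, and the YY1 motif in 4.76%, 2.99% and 1.38%. The RUNX core TGTGGTT was in 0% of the 21 windows, in 3.07% of windows in any site and in 4.71% of all, and the AP-1 motif TGANTCA in 4.76%, 3.47% and 6.99% of them. The median share of G and C was 61.3% in the 21 windows, 64.3% in windows in any site and 56.3% in all windows. A match describes the letters only.

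All 69 sites of the transcription machinery had less UTX signal in UTX-deficient cells. In the authors' deposited table each of the 69 sites had an FDR under 0.05 and a fold with WT higher; the background is 81.0% of the 8293 tests behind the table and 99.7% of the sites in it, since nearly all listed sites run this way. The FDR was under 0.01 at 56 of the sites, for which no share over all sites is given here. It ran from 6.84e-21 at Cdk19 to 0.0442 at Taf8 in the authors' deposited table. Summed over the 69 sites, UTX-deficient libraries held 141, 259 and 0 reads and WT libraries held 3591, 2760 and 2063 reads. The mean per site was 1.06, 3.50 and 0 normalized reads in UTX-deficient libraries (1.52 ± 1.79, SD, n = 3) and 40.7, 43.7 and 37.7 in WT libraries (40.7 ± 2.96, SD, n = 3). The groups did not overlap in this mean, and an exact permutation test of 3 against 3 libraries cannot give a two-sided p under 0.1. At single sites, each WT library lay above each UTX-deficient library at 69 of 69 sites, against a background of 99.7% of all solved sites. Fewer cells with UTX on a site and less UTX per cell cannot be told apart in such bulk libraries.

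limma on log2(normalized reads + 1) called all 69 sites lower in UTX-deficient cells at an adjusted p under 0.05, against 99.7% of the 6733 sites tested, and did so again without the near-empty library, where the background was also 99.7%. The sites had been selected by the authors' FDR on the same libraries, so this is no independent test. The median limma difference over the members was -4.02 on the log2 scale, against -4.09 over all sites higher in WT, and -3.63 against -3.65 without the near-empty library. In the authors' deposited table the median log2 fold of the members was -3.41 (quartiles -4.22 and -2.91), against -3.51 over all sites higher in WT. Scaling by the reads in the sites themselves takes out, by construction, a genome-wide genotype difference between WT libraries and the deeper UTX-deficient libraries. It left 3 of the 69 calls, against 4.63% of all 6733 sites, so the members' share was near the background. The members' median difference was then -1.83 and that of all sites -1.64, and no member had a positive one. The near-empty library, with 0 reads at all 69 sites, stays at 0 under any scaling and pulls these differences down. Their size and sign therefore say little about the members, and this scaling was not run without that library.

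**Figure D1:**
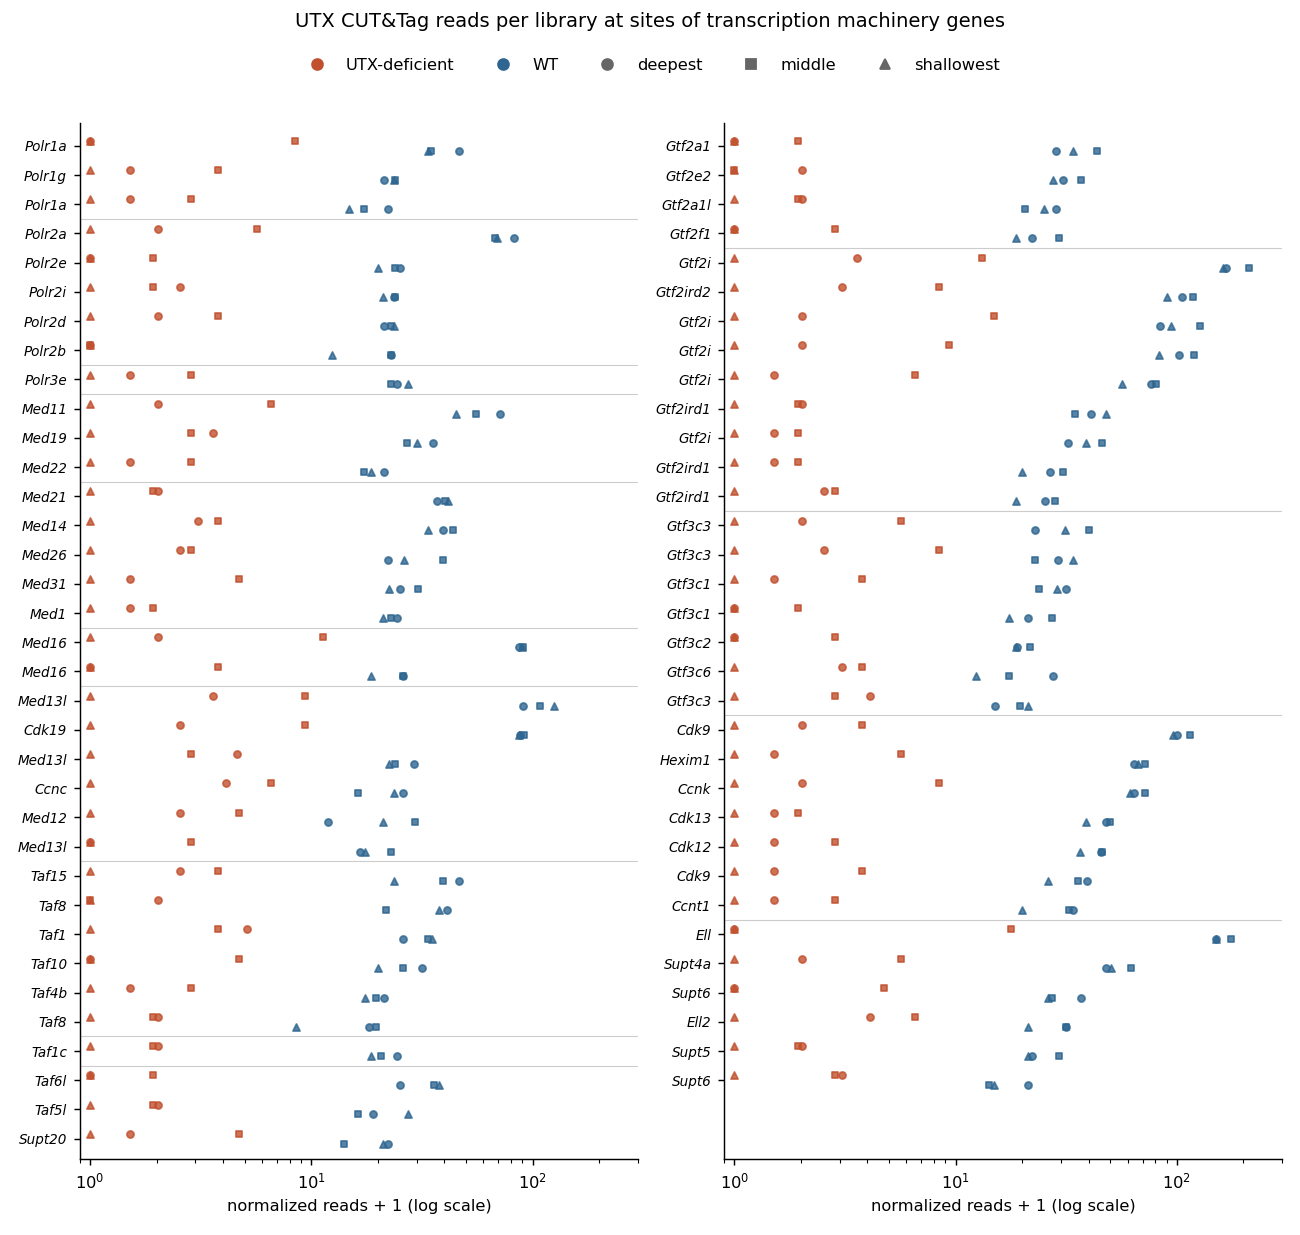
Normalized reads plus 1 (log scale) in each of the 6 libraries at 68 of the 69 sites, grouped by complex (grey lines) and sorted within each by WT level; each row is a site, UTX-deficient libraries are drawn above WT libraries. All UTX-deficient points lie to the left of all WT points of their row, and the near-empty UTX-deficient library sits at 0 reads throughout.

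The members were of middling strength. The median over members was 1.14 normalized reads in UTX-deficient cells and 27.6 in WT cells (WT quartiles 21.8 and 40.1), and over all sites higher in WT it was 1.28 in UTX-deficient cells and 30.7 in WT cells. Among the strongest 25% of sites by WT concentration were 15 members, and 18 were among the weakest 25%. Expressed as reads per depth, UTX-deficient cells kept 4.71% of the WT signal over all members together (exact 95% interval 4.25 to 5.21), against 5.06% over all sites higher in WT. These intervals cover counting error only, and PCR copies are not independent molecules. They also leave out the spread between libraries. Per member site, the deepest UTX-deficient library had a mean of 1.06 normalized reads and the middle one 3.50. Intervals that do not overlap therefore do not show that sets of sites differ. The remaining share was under 5% at 39 sites and above 20% at 0, counts for which no share over all sites is given here. The median remaining share was 4.53% over members and 4.90% over all sites higher in WT, so the members were near the background. The middle UTX-deficient library had more normalized reads than the deepest at 53 of the 69 sites (76.8%, against 84.0% over all sites), so the remaining signal differed between the usable UTX-deficient libraries.

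Sites were found at many genes of the machinery. Of 128 protein-coding genes in the reference whose symbol meets the rule, 52 (40.6%) had a site higher in WT, against 22.1% of all 21900 protein-coding genes. Polr1g is not in the reference under this symbol and is left out of these shares. The background includes genes silent in T cells, and no test was made of the difference. With sites within 10 kb of an end of the gene only, 51 member genes remained, against 19.3% of all genes, and within 1 kb of an end 44 remained, against 15.3%. At an FDR of 0.01 there were 45 member genes, against 19.5% of all genes, and within 1 kb of a transcription start 41, against 14.3%. By step of transcription, a site was found at 8 of 28 polymerase genes (28.6%), 13 of 33 Mediator genes (39.4%), 20 of 52 initiation factor genes (38.5%) and 11 of 15 elongation genes (73.3%).

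**Figure D2:**
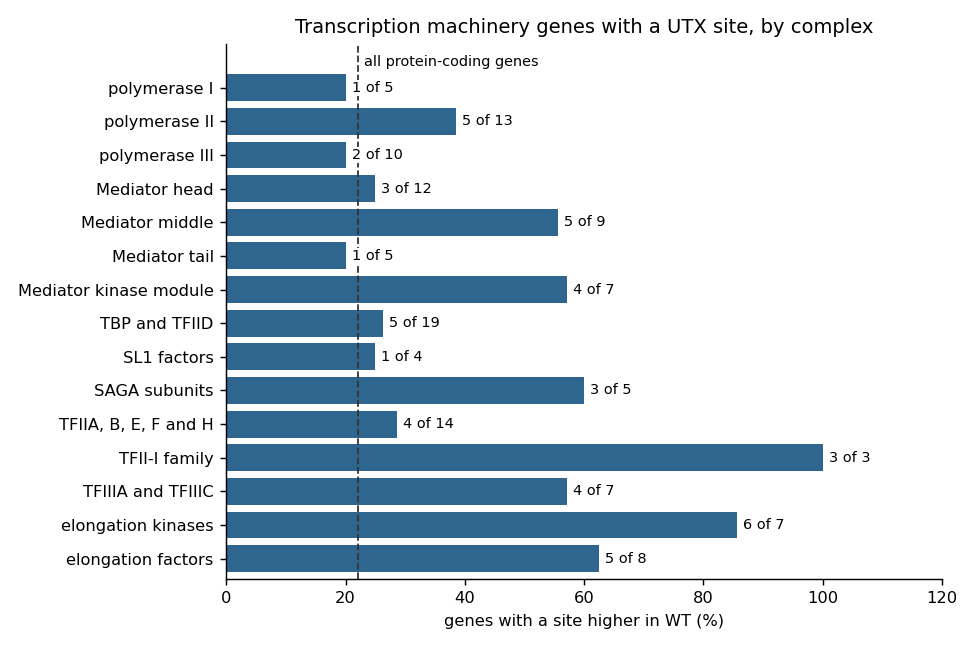
Share of the genes of each complex that had a site higher in WT, as bars in percent with the number of genes beside each; the dashed line is the 22.1% of all protein-coding genes. The TFII-I family (3 of 3) and the elongation kinases (6 of 7) stand highest, and polymerases I and III and the Mediator tail lie at 20%.

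Among polymerase genes, the largest subunit of polymerase II had the strongest site. Polr2a, which holds the catalytic centre and the C-terminal repeat tail, had a site at chr11:69758582-69758982, covering the whole promoter window shown above, with 2, 5 and 0 reads in UTX-deficient libraries and 104, 61 and 54 reads in WT libraries. The difference by limma was -5.01 on the log2 scale (SE 0.94, adjusted p 1.41e-07), and -4.42 (SE 0.59) without the near-empty library. For Polr2a the authors' deposited table gives a log2 fold of -4.59 (FDR 6.75e-18). Polr2b, the other subunit of the catalytic core, was the only member with no read in any UTX-deficient library, against 28, 20 and 9 reads in WT libraries; with the floor of 3 reads over the group, WT was at least 19.2-fold higher. The Polr2b site begins on chromosome 5 at 77310058 and ends before the start of Polr2b, overlapping the neighbouring gene Noa1 instead. It has an FDR of 0.0181 in the authors' deposited table. The other polymerase II genes with a site were Polr2d, Polr2e and Polr2i, with WT means of 21.6 normalized reads at Polr2d, 22.03 at Polr2e and 21.9 at Polr2i. The Polr2e site lies outside the gene, 2.68 kb from its nearer end. The Polr2i site ends before the start of Polr2i and overlaps the neighbouring gene Tbcb. Polr2c, Polr2f, Polr2g, Polr2h, Polr2j, Polr2k, Polr2l and Polr2m had no site.

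At polymerases I and III the share of genes with a site was 20% each, near the 22.1% of all protein-coding genes. Polr1a, the largest subunit of polymerase I, was the only one of 5 Polr1 genes in the reference with a site, and it had 2. The Polr1a site at the start held 1, 2 and 0 reads in UTX-deficient libraries and 27, 15 and 11 reads in WT libraries, and the site beyond the far end of the gene held 0, 8 and 0 reads in UTX-deficient libraries and 58, 31 and 26 reads in WT libraries. The second lies 1.05 kb from the nearer gene end, and in the authors' deposited table its fold was -2.54 (log2; FDR 0.0212). Polr1g, a polymerase I subunit, held 1, 3 and 0 reads in UTX-deficient libraries and 26, 21 and 18 reads in WT libraries. Its site lies at the start of the gene that the reference calls Cd3eap. The polymerase III subunit gene Polr3e held 1, 2 and 0 reads in UTX-deficient libraries and 30, 20 and 21 reads in WT libraries, and in the authors' deposited table its fold was -3.55 (log2; FDR 1.6e-05).

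Each module of Mediator had at least 1 gene with a site; the shares of the head (25%) and tail (20%) were near the 22.1% of all protein-coding genes, and no module was tested against it. In the head, which contacts polymerase II, 3 of 12 genes had a site: Med11, Med19 and Med22. Med11 held 2, 6 and 0 reads in UTX-deficient libraries and 90, 50 and 35 reads in WT libraries. Its limma difference was -4.57 (SE 0.89, adjusted p 3.71e-07), and -3.94 (SE 0.59) without the near-empty library. In the middle module 5 of 9 genes had a site, namely Med1, through which nuclear receptors contact the complex, the scaffold subunit Med14, and Med21, Med26 and Med31. Med21, whose promoter is printed above, held 2, 1 and 0 reads in UTX-deficient libraries and 46, 36 and 32 reads in WT libraries, and in the authors' deposited table its fold was -4.44 (log2; FDR 1.74e-10). The site of Med26, a subunit that docks elongation factors, held 3, 2 and 0 reads in UTX-deficient libraries and 27, 35 and 20 reads in WT libraries. In the tail, which activators bind, 1 of 5 genes had a site, Med16, with a strong site near the start and a weaker one further into the gene. The stronger Med16 site held 2, 11 and 0 reads in UTX-deficient libraries and 110, 82 and 70 reads in WT libraries, and the weaker 0, 3 and 0 reads in UTX-deficient libraries and 32, 23 and 14 reads in WT libraries.

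The kinase module, which binds Mediator reversibly and can keep polymerase II away from it, had sites at 4 of 7 genes: the kinase Cdk19, cyclin C (Ccnc), Med12 and Med13l. Cdk19 had the smallest FDR of all members in the authors' deposited table (6.84e-21), with 3, 9 and 0 reads in UTX-deficient libraries and 111, 83 and 68 reads in WT libraries. Its paralog Cdk8 had no site, nor did Med12l and Med13. Ccnc had the least negative log2 fold of all members in the authors' deposited table, -1.96 (FDR 0.0107), with 6, 6 and 0 reads in UTX-deficient libraries and 32, 14 and 18 reads in WT libraries. The UTX-deficient cells kept 18.6% of the WT signal at Ccnc (exact 95% interval 9.13 to 34.8), the highest share among the members. The limma difference at Ccnc was -2.85 with all 6 libraries and -2.05 without the near-empty one, on the log2 scale. Med13l had 3 sites, 1 at the start and 2 far from it, at 82002 and 95036 bp from the nearer gene end. The nearer of these, chr5:118478128-118478528, was among the strongest members, with 5, 9 and 0 reads in UTX-deficient libraries and 115, 98 and 98 reads in WT libraries. The farther one held 7, 2 and 0 reads in UTX-deficient libraries and 36, 21 and 17 reads in WT libraries, and the site at the start 0, 2 and 0 reads in UTX-deficient libraries and 20, 20 and 13 reads in WT libraries. The starts of Gm30746 and Gm46921 are nearer to the distal sites, so their link to Med13l rests on the authors' assignment. Med12 held 3, 4 and 0 reads in UTX-deficient libraries and 14, 26 and 16 reads in WT libraries, with 12.4% of the WT signal kept (exact 95% interval 4.76 to 27.2).

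**Figure D3:**
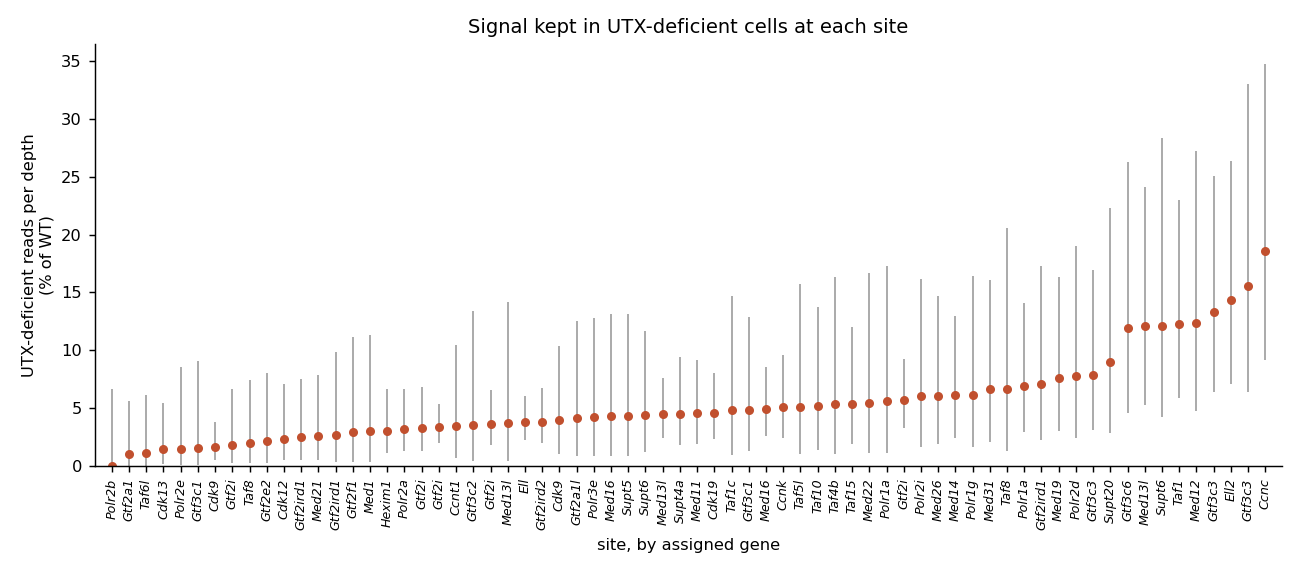
Reads per depth in UTX-deficient cells as a percentage of WT at 68 of the 69 sites, in rising order, with exact 95% intervals that cover counting error only. The values run from 0% at Polr2b to 18.6% at Ccnc.

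Of the initiation factors, parts of TFIID, SAGA, TFIIA, TFIIE, TFIIF and TFIIIC had sites, and TFIIB and TFIIH had none. Of 19 TBP and TFIID genes 5 had a site: Taf1, the largest subunit, Taf4b, Taf8, Taf10 and Taf15. Tbp itself had none. Taf15 held 3, 3 and 0 reads in UTX-deficient libraries and 58, 35 and 18 reads in WT libraries, and in the authors' deposited table its fold was -3.60 (log2; FDR 1.87e-07). Taf8 had a site at its start with 2, 0 and 0 reads in UTX-deficient libraries and 51, 19 and 29 reads in WT libraries, and another inside the gene with 2, 1 and 0 reads in UTX-deficient libraries and 22, 17 and 6 reads in WT libraries. The site inside the gene was the weakest member, with 14.4 ± 5.99 normalized reads in WT cells (SD, n = 3). Of the 4 SL1 factors, which serve polymerase I, Taf1c had a site, but it lies inside the neighbouring gene Dnaaf1 and 3.01 kb from the nearer end of Taf1c. Taf1c held 2, 1 and 0 reads in UTX-deficient libraries and 30, 18 and 14 reads in WT libraries.

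Of 5 subunits of the SAGA coactivator, 3 had a site: Taf5l, Taf6l and Supt20. Taf6l held 0, 1 and 0 reads in UTX-deficient libraries and 31, 32 and 29 reads in WT libraries, with 1.08% of the WT signal kept (exact 95% interval 0.027 to 6.15). Supt20 held 1, 4 and 0 reads in UTX-deficient libraries and 27, 12 and 16 reads in WT libraries, and in the authors' deposited table its fold, -2.20 (log2; FDR 0.0418), is among the 4 least negative.

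Of the factors TFIIA, TFIIB, TFIIE, TFIIF and TFIIH, 4 of 14 genes had a site: Gtf2a1 and its germ-cell paralog Gtf2a1l, Gtf2e2 and Gtf2f1. Gtf2a1, the large subunit of TFIIA, held 0, 1 and 0 reads in UTX-deficient libraries and 35, 39 and 26 reads in WT libraries, and in the authors' deposited table its fold, -4.77 (log2; FDR 2.99e-08), was the third most negative. TFIIH, which opens the promoter and phosphorylates polymerase II, had no site at Gtf2h1, Gtf2h2, Gtf2h3, Gtf2h4, Gtf2h5 or its kinase Cdk7, nor at Ercc2, Ercc3, Ccnh or Mnat1, so 0 of its 10 genes had one. This union was formed after the values were seen. A gene without a site in the table is not shown to lack UTX.

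Of the initiation factors of polymerase III, TFIIIA and TFIIIC had sites at 4 of 7 genes, all subunits of TFIIIC, the factor that reads transfer RNA promoters: Gtf3c1, Gtf3c2, Gtf3c3 and Gtf3c6. Together the 7 sites kept 8.26% of the WT signal in UTX-deficient cells (exact 95% interval 5.83 to 11.4), with 16, 24 and 0 reads in UTX-deficient libraries and 204, 152 and 124 reads in WT libraries. The Gtf3c1 site at the start held 0, 1 and 0 reads in UTX-deficient libraries and 26, 24 and 13 reads in WT libraries, and the distal one, 5.42 kb from the nearer gene end, held 1, 3 and 0 reads in UTX-deficient libraries and 39, 21 and 22 reads in WT libraries. The distal Gtf3c1 site lies outside the gene and nearer to the start of Il21r, so its link to Gtf3c1 rests on the authors' assignment. Gtf3c3 had 3 sites, none at its start. The Gtf3c3 site inside the gene held 3, 8 and 0 reads in UTX-deficient libraries and 36, 20 and 26 reads in WT libraries. The other two Gtf3c3 sites lie side by side in the gene Pgap1, 53.7 and 54.6 kb away. The site at 53.7 kb held 2, 5 and 0 reads in UTX-deficient libraries and 28, 36 and 24 reads in WT libraries, and the site at 54.6 kb held 6, 2 and 0 reads in UTX-deficient libraries and 18, 17 and 16 reads in WT libraries. At 54.6 kb the UTX-deficient cells kept 15.5% of the WT signal (exact 95% interval 6.37 to 33.0). Their link to Gtf3c3 rests on the authors' assignment.

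The TFII-I family held a dense run of sites. TFII-I (Gtf2i) and its relatives Gtf2ird1 and Gtf2ird2 are signal-responsive transcription factors whose genes lie close together on mouse chromosome 5, and all 3 had sites, 9 in all. These 9 sites and a further one assigned to the microRNA gene Mir3965 lay between 134184422 and 134445010, a span of 260589 bp. Of 6718 windows of that span started at a site higher in WT, 239 held as many sites or more, and the median window held 3. The family held 77 reads in UTX-deficient libraries and 2031 reads in WT libraries, which is 24.1% of all WT reads in the 69 sites.

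The strongest member of all was inside Gtf2i at chr5:134269714-134270114, with 5, 13 and 0 reads in UTX-deficient libraries and 212, 193 and 127 reads in WT libraries, or 4.90 ± 6.38 normalized reads in UTX-deficient and 179 ± 27.6 in WT cells (SD, n = 3 each). By limma it differed by -5.63 on the log2 scale (SE 1.30, adjusted p 1.7e-05), and by -4.70 (SE 0.73) without the near-empty library. The Gtf2i site at 134266342 held 2, 9 and 0 reads in UTX-deficient libraries and 129, 109 and 65 reads in WT libraries. The Gtf2i site at 134282495 held 2, 15 and 0 reads in UTX-deficient libraries and 106, 116 and 74 reads in WT libraries, and that at 134236879, 753 bp from the nearer gene end, held 1, 6 and 0 reads in UTX-deficient libraries and 96, 73 and 44 reads in WT libraries. The site nearest the start of Gtf2i was weaker than these, with 1, 1 and 0 reads in UTX-deficient libraries and 40, 41 and 30 reads in WT libraries. In the authors' deposited table that site, at 134313538, had the most negative log2 fold of the family, -4.65 (FDR 1.33e-09). The start of Ncf1 is nearer than that of Gtf2i to the sites at 134236879, 134266342 and 134269714. The site at 134236879 lies outside Gtf2i, so its link to the gene rests on the authors' assignment.

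Gtf2ird2, whose site lies 584 bp past its start, held 4, 8 and 0 reads in UTX-deficient libraries and 133, 108 and 71 reads in WT libraries, with the smallest FDR of the family in the authors' deposited table (7.61e-21). The 3 Gtf2ird1 sites were among the weaker ones of the family, with means of 0.483, 1.14 and 0.655 normalized reads in UTX-deficient cells and 24.7, 23.1 and 40.1 normalized reads in WT cells. Per library, the Gtf2ird1 site at 134350691 held 1, 1 and 0 reads in UTX-deficient libraries and 33, 27 and 15 in WT libraries. The site at 134437352 held 3, 2 and 0 reads in UTX-deficient libraries and 31, 25 and 14 in WT libraries, and that at 134444610 held 2, 1 and 0 reads in UTX-deficient libraries and 51, 31 and 37 in WT libraries. No Gtf2ird1 site lies within 1 kb of its start, and the site at 134350691 lies outside the gene and nearer to the start of Gm46925.

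**Figure D4:**
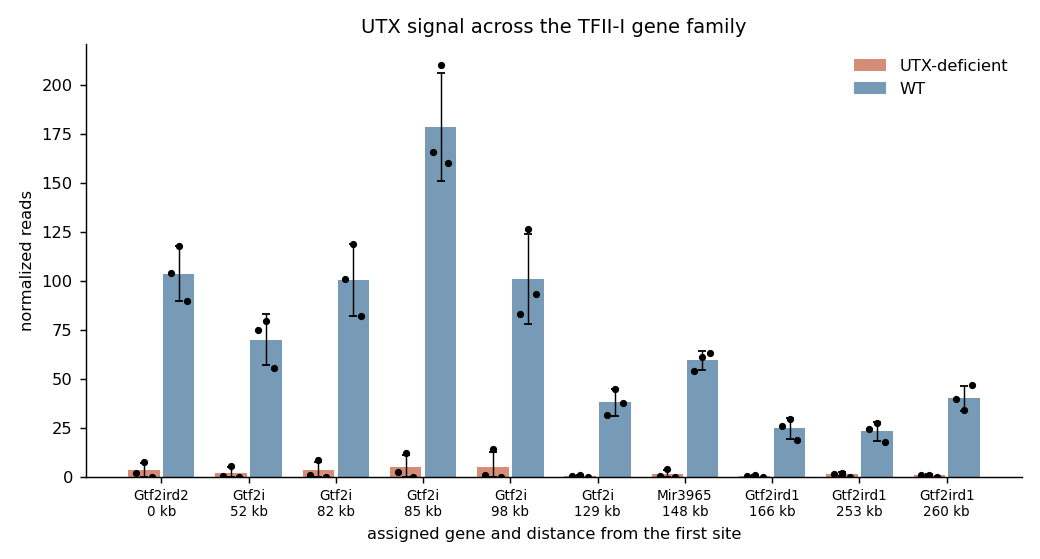
Normalized reads at the 9 sites of the TFII-I gene family and the site assigned to Mir3965 among them, ordered along chromosome 5 by kb from the first site; bars are means of 3 libraries (UTX-deficient left, WT right), error bars are SD cut at 0 and points are libraries. UTX-deficient means lie at or below 5.01, and WT means lie between 23.1 at a Gtf2ird1 site and 179 at a Gtf2i site.

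Among the steps of transcription, the elongation genes had the largest share of genes with a site, and among the 15 role groups their kinases had the most negative median fold. Of the 7 kinase, cyclin and inhibitor genes, all but Ccnt2 had a site: the P-TEFb kinase Cdk9 and its cyclin Ccnt1, the P-TEFb inhibitor Hexim1, and the kinases Cdk12 and Cdk13 with their cyclin Ccnk. The median log2 fold of their 7 sites was -4.55 in the authors' deposited table, against -3.41 over all members. Together they held 9, 24 and 0 reads in UTX-deficient libraries and 497, 381 and 268 reads in WT libraries, so UTX-deficient cells kept 2.85% of the WT signal (exact 95% interval 1.96 to 4.03). The sites of the TFIIA, TFIIE and TFIIF genes kept less, 2.40% (exact 95% interval 1.03 to 4.78). The kinase group was also stronger in WT cells, with a median of 44.6 normalized reads against 27.6 over all members. Cdk9 had the most negative log2 fold of all members in the authors' deposited table, -5.41 (FDR 3.01e-20), at chr2:32712999-32713399, 415 bp from its start. That Cdk9 site held 2, 3 and 0 reads in UTX-deficient libraries and 127, 104 and 75 reads in WT libraries. Its limma difference was -5.71 (SE 0.99, adjusted p 1.75e-08), and -5.21 (SE 0.58) without the near-empty library. The start of the gene Gm33457 is nearer to this site than that of Cdk9. The second Cdk9 site, 2.29 kb from the gene, held 1, 3 and 0 reads in UTX-deficient libraries and 49, 32 and 20 reads in WT libraries.

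Cdk13 and Hexim1, whose promoters are printed above, followed among the elongation genes with log2 folds of -4.93 (FDR 2.76e-11) and -4.63 (FDR 5.54e-17) in the authors' deposited table. Cdk13 held 1, 1 and 0 reads in UTX-deficient libraries and 60, 45 and 30 reads in WT libraries. Hexim1 held 1, 5 and 0 reads in UTX-deficient libraries and 81, 65 and 52 reads in WT libraries. Both sites cover most of the promoter window. The groups did not overlap at either, as at all 69 members and 99.7% of all solved sites. Cdk12 held 1, 2 and 0 reads in UTX-deficient libraries and 57, 41 and 28 reads in WT libraries, at a site that begins 9799 bp from that of Med1 on chromosome 11. Ccnk, whose site is shared with the neighbouring gene Setd3, held 2, 8 and 0 reads in UTX-deficient libraries and 81, 65 and 48 reads in WT libraries, and Ccnt1 held 1, 2 and 0 reads in UTX-deficient libraries and 42, 29 and 15 reads in WT libraries.

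Of 8 elongation factor genes 5 had a site: Ell and Ell2, which speed up polymerase II, Supt4a and Supt5, which together form DSIF, and the histone chaperone Supt6. Ell3, Supt4b and the FACT subunit gene Supt16 had none. Ell was the strongest member after Gtf2i, with 0, 18 and 0 reads in UTX-deficient libraries and 191, 160 and 118 reads in WT libraries, so that all of its UTX-deficient reads came from a single library. The normalized mean at Ell was 5.59 ± 9.69 in UTX-deficient and 158 ± 14.7 in WT cells (SD, n = 3 each), and the authors' deposited table gives a log2 fold of -3.33 (FDR 0.0069). Its site lies 343 bp upstream of Ell, with the start of the gene Gm51534 nearer. Ell2 held 6, 6 and 0 reads in UTX-deficient libraries and 39, 28 and 16 reads in WT libraries, with 14.3% of the WT signal kept (exact 95% interval 7.12 to 26.4). Supt4a held 2, 5 and 0 reads in UTX-deficient libraries and 60, 56 and 39 reads in WT libraries, at a site 1.54 kb from the nearer gene end. At Supt6 the site at the start held 0, 4 and 0 reads in UTX-deficient libraries and 46, 24 and 20 reads in WT libraries, and the site inside the gene held 4, 2 and 0 reads in UTX-deficient libraries and 26, 12 and 11 reads in WT libraries. The site at the start of Supt6 is shared with Sdf2.

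Genes that work with these factors but fall outside the rule also held sites. Of 55 such genes, in a list drawn up with earlier results of these data known, 24 (43.6%) had a site higher in WT, against 22.1% of all protein-coding genes, the share to set beside each count of partner genes that follows. All 3 partners of Hexim1 in the 7SK particle had sites: Larp7 and Mepce, which stabilise the RNA, and Hexim2. The Hexim2 sites lie 6881 and 2856 bp from the nearer gene end and could not be placed against a start. Mepce held 1, 7 and 0 reads in UTX-deficient libraries and 111, 102 and 70 reads in WT libraries, and Larp7 held 3, 4 and 0 reads in UTX-deficient libraries and 64, 64 and 45 reads in WT libraries. With P-TEFb and Hexim1 added, a union formed after the values were seen, 6 of 7 genes had a site. Of the super elongation complex 5 of 6 genes had a site (Aff1, Aff4, Mllt1, Mllt3 and Eaf2). Brd2 and Brd3, which encode BET proteins that bind acetylated chromatin, also had sites. Brd2 held 3, 7 and 0 reads in UTX-deficient libraries and 82, 69 and 44 reads in WT libraries.

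Other cofactors of the polymerases had sites at part of their genes, and the shares of NELF (25%) and of the termination and phosphatase list (16.7%) were near the 22.1% of all protein-coding genes. Of the negative elongation factor NELF 1 of 4 genes had a site (Nelfa), of the termination and phosphatase list 1 of 6 (Pcf11), of TFIIS 0 of 3 and of FACT, through Ssrp1, 0 of 1. Integrator, which cleaves nascent RNA, had 6 of 14, with the strongest at Ints6, where UTX-deficient libraries held 9, 9 and 0 reads and WT libraries held 124, 86 and 75 reads. The PAF complex had 3 of 6 (Paf1, Leo1 and Rtf1). For polymerase III, the TFIIIB subunit Brf1 was the single one of 3 with a site, with 0, 5 and 0 reads in UTX-deficient libraries and 87, 63 and 56 reads in WT libraries. Of the polymerase I factors, Ubtf had a site and Rrn3 had none. No test was made between these lists.

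Most member sites lay at the start of their gene. Of 63 sites whose gene has a start in the RefSeq promoter table, 41 (65.1%) had their middle within 1 kb of it, against 61.0% of the 5382 sites of the table that could be placed in this way. Of these 41, the middle was upstream of the start at 28 (68.3%, against 68.6% over all sites), and the median position was -134 bp, against -75 bp. Measured to the nearer end of the gene, 44 of 68 placed sites (64.7%) lay within 1 kb, against 53.2% of 6648. Sites of the same gene are not independent, and this difference was not tested. The levels in both classes were close. The 41 sites at starts had a median of 1.14 normalized reads in UTX-deficient and 27.8 in WT cells, and the other 22 had 1.48 in UTX-deficient and 29.1 in WT cells. Strong members stood in both classes, Ell and Cdk9 at starts, and Gtf2i and Med13l away from them. The nearest start was that of the assigned gene at 43 of the 63 member sites, against 4257 of the 5382 over all sites. This share was lower among members, and the difference was not tested. At the other placed sites the start of another gene was nearer. The members were spread over 17 chromosomes, with 14 on chromosome 5, 10 on chromosome 11 and 3 on X.

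**Figure D5:**
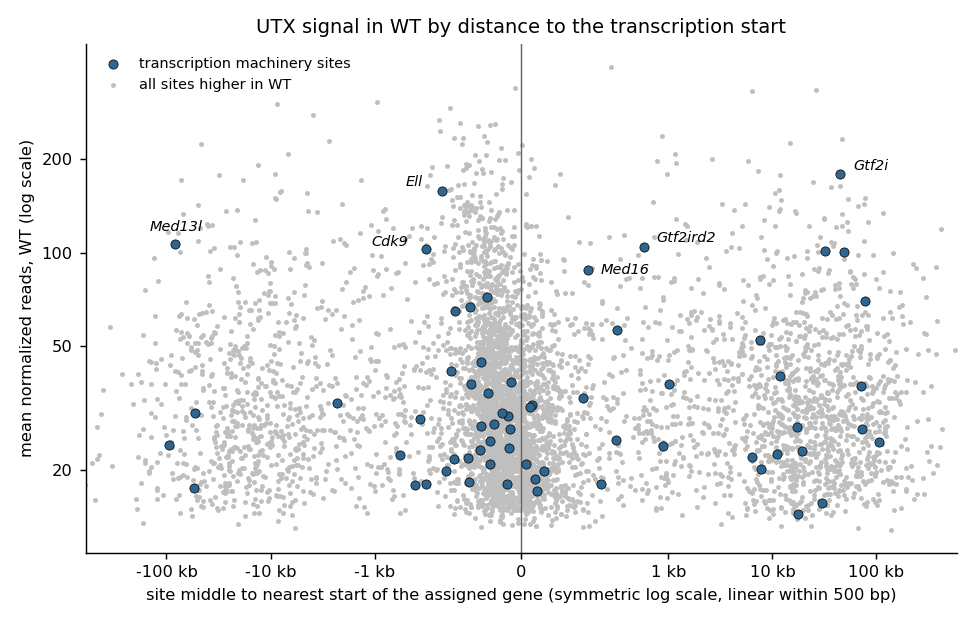
Mean normalized reads in WT cells (log scale) against the distance from the site's middle to the nearest start of the assigned gene (symmetric log scale, negative upstream), for 63 member sites (blue) and all sites higher in WT that could be placed (grey). Members lie among the other sites, most within 1 kb of the start, with strong ones both at starts (Ell) and far from them (Gtf2i, Med13l).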

How the data were processed

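UTX CUT&Tag was compared between 3 UTX-deficient and 3 WT samples, set by the genotype label. The submitters' processing notes name build mm10 and, in no stated role or version, DiffBind, MACS2, Picard, SAMtools, Bowtie2, cutadapt and FastQC. Whether peaks were called per sample was not stated. Per the file headers, the deposited table is a DiffBind report with log2 concentrations (mean normalized reads over all samples and per group, with 0 as the lowest value), a log2 fold that is negative where WT is higher, and a p-value and an FDR per site. IgG libraries were not used here. The site of 1 member gene is counted in the totals but not described or labelled, and 1 partner gene is likewise not reported here.

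Whole reads of each library were worked out from the group concentrations, since 3 times the antilog of a group's value is a sum of whole reads, each times what 1 read of its library is worth. WT sums had exactly 1 solution at 6735 sites, as had UTX-deficient sums, and both were solved at 6733. Randomly shifted sums were solved in 0.2% of cases in UTX-deficient cells and 0.6% in WT. PCR reads are not independent molecules and reads were pooled over libraries, so intervals cover counting error only and leave out the spread between libraries. These reads went into limma 3.58.1 under R 4.3.3 (log2 of normalized reads + 1, trend, Benjamini-Hochberg over all 6733 sites, threshold 0.05). The limma script was first run on simulated data in which no library was near-empty. That run does not show how such a library affects the fit. The share of signal kept is the UTX-deficient read rate as a percentage of the WT rate with an exact conditional (Clopper-Pearson) 95% interval.

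Gene ends and promoter windows came from RefSeq tables of GRCm38.p6; all 52 of the 53 member genes whose symbol is in them were matched. The members, the role groups and the partner and marker lists were chosen with earlier results of these data known. Reads per library are printed for the 4 strongest and 4 weakest members, the 4 most and 4 least negative folds, the smallest FDR of each role group and every site of genes with 2 or more; partner sites and further members were chosen after their values were seen. Alternatives were other thresholds, pseudocounts, filters, scalings and distances and leaving out each library. The distance to a transcription start was added as an alternative after seeing the data.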

Additional observations from a re-analysis of the deposited data

How the results depend on the processing

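All 69 member sites stayed lower in UTX-deficient cells, and called by limma, when each library was left out in turn (69 to 69 calls) and with a pseudocount of 0.5 or 5. Under each of these settings 99.7% of all 6733 sites were called lower. A filter on a mean of at least 20 normalized reads left 18 member sites to test, all 18 called, against 99.3% of the 2408 sites that passed. Member sites passed this filter through their WT reads. Scaling by the reads in the sites left 3 calls, near the 4.63% of all sites called under that scaling. The median log2 fold of -3.41 became -3.54 with 1 site per gene, -4.02 as a limma difference with all 6 libraries, and as a limma difference -4.04 without the deepest UTX-deficient library, -4.46 without the middle one, -3.63 without the near-empty one, -3.98 without the deepest WT library, -3.99 without the middle one and -4.17 without the shallowest one. Thresholds of 0.01 and 0.001 on the authors' FDR left 56 and 49 member sites, and the shares of all sites at these thresholds are not given here. Member sites near a gene end numbered 41 at 500 bp and 47 at 2 kb. No named site changed direction or lost its call under the alternatives on which it was tested, the scaling by reads in sites not among them. TMM-like factors were not run. No paired analysis was possible because the recovered libraries carry no replicate number. With at most 3 reads in UTX-deficient cells at 28 members, depth limits how far the remaining signal can be told apart between sites.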
